A study of Mus musculus with 2 samples.

Results

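Heat shock proteins and their co-chaperones were examined in mRNA-seq libraries of mouse intestinal organoids (mIOs). The members were chosen by gene name in the deposited count table, as the HSP70, HSP110, HSP90, small HSP and HSP60/HSP10 genes, the Cct subunits of the cytosolic chaperonin TRiC, the J-domain (Dnaj) genes, the BAG genes and the heat shock factors. The names matched 82 genes, of which 5 chaperones of the endoplasmic reticulum (Hspa5, Hsp90b1, Dnajb9, Dnajb11 and Dnajc3) were left out. Of the remaining 77, all but Dnajc6 (7 control and 4 DSS counts) reached 10 counts in the control, the DSS library or both, which left 76 members among 17235 genes at that minimum and 19294 listed genes.

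The libraries came from 1 control culture and 1 culture treated with dextran sulfate sodium (DSS), a sulfated polysaccharide that injures the intestinal epithelium. Both were mIOs grown from jejunal crypts of mice with the genotype Lgr5-EGFP-IRES-creERT2, in which EGFP and an inducible Cre are expressed from the stem cell gene Lgr5. Both were kept in medium with EGF, Noggin and R-spondin and carry the label of day 4, and the treated culture received DSS for 4 days at a concentration that is not given in the sources used here. Such organoids hold epithelium without the immune cells, vessels and stroma of the gut wall. The age of the mice and the number of animals are also not given in the sources used here.

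Sequencing gave 65493032 gene counts for the control and 59746968 for DSS. With 1 library per condition, no difference has a replicate check and no test was made. Counts were scaled with TMM factors (trimmed mean of M-values) to give the CPM, the count relative to the scaled library size. Each gene is described by the DSS CPM divided by the control CPM, on a log2 scale. Its exact Clopper-Pearson interval at 95% covers counting error and leaves out the variation between cultures. A gene was called higher or lower at 2-fold where its log2 ratio was 1 or more, or -1 or less.

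The libraries also differed in markers of cell types. All 4 stem cell markers were at 2-fold lower, from 702 CPM in sum in the control to 124 CPM with DSS, although both libraries are labelled as intestinal stem cells. Of 6 genes of cycling cells, 5 were at 2-fold lower (1220 and 231 CPM in sum), and the 4 Paneth cell markers ran from -1.19 to -0.88 (494 and 241 CPM). All 7 enterocyte markers (1500 and 19100 CPM) and all 5 goblet cell markers (703 and 11100 CPM) were at 2-fold higher. The 8 general epithelial markers had a median of 0.03 and ran from -1.35 for Cdx2 to 3.99 for Krt20. Of 7 mesenchymal markers 3 were listed (1.38 and 1.74 CPM in sum), of 6 immune markers 4 (14.1 and 24.3 CPM), and of 3 endothelial markers only Pecam1 (0.168 and 1.01 CPM). The part of these differences in the values of the chaperone genes was not tested, and in such bulk libraries fewer cells of a type and less RNA per cell cannot be told apart.

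Chaperones hold unfolded proteins in solution and help them to fold. HSP70 binds exposed stretches of a protein in a cycle driven by ATP, J-domain proteins bring it its clients and start ATP hydrolysis, and exchange factors such as HSP110 and BAG proteins let the client go. HSP90 completes the folding of kinases and receptors, TRiC folds actin and tubulin in the cytosol, and HSP60 with HSP10 folds proteins imported into mitochondria. Heat shock factor 1 (Hsf1) switches on many of these genes under stress by binding heat shock elements, inverted repeats of the letters GAA, in their promoters. In the gut, crypt cells that grow and divide make much protein, and the epithelium is exposed to injury from the lumen.

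Of the 76 members, 6 were at 2-fold higher and 19 at 2-fold lower in the DSS library, and 51 lay between these lines. Among all genes at the same count minimum, 19.3% were at 2-fold higher and 20.2% at 2-fold lower, beside 7.89% and 25% of the members. One of the 6, Hspb1, reached 10 counts only in the DSS library (8 control and 13 DSS counts). Of the 74 members with 10 counts in both libraries, 5 were at 2-fold higher and 19 at 2-fold lower, beside 16.8% and 18.9% of all genes. Scaled by total counts alone, 3 members were at 2-fold higher and 25 at 2-fold lower, beside 15.4% and 26.2% of all genes. Above 0 were 26 members, or 34.2%, beside 48% of all genes. The median log2 ratio of the members was -0.39, beside -0.06 for all genes. In 43 members the counting interval lay below 0, in 21 above 0, and in 12 it included 0. Among all 17235 genes, it lay below 0 in 7354, above 0 in 6676, and included 0 in 3205. Of the 54 members with 1000 counts or more in one library, 1 was at 2-fold higher and 18 at 2-fold lower, or 1.85% and 33.3%, beside 12.8% and 17.7% of all genes with that many counts.

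The members together held 1.25% of all counts in the control and 0.587% with DSS, at a log2 ratio of their summed counts of -0.83. Hsp90ab1 and Hspa8 were the most abundant members. Per kilobase of exon, Hsp90ab1 was at 970 CPM and Hspa8 at 872 CPM in the control, while with DSS Hspa8 was at 593 CPM and Hsp90ab1 at 309 CPM, so that their order was exchanged. Hspa9 came next in both libraries, at 320 CPM per kilobase in the control and 138 with DSS. Bag1, by the same measure, was in place 12 of 74 members with a known length in the control and in place 4 with DSS, with 106 and 115 CPM per kilobase.

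**Figure D1:**
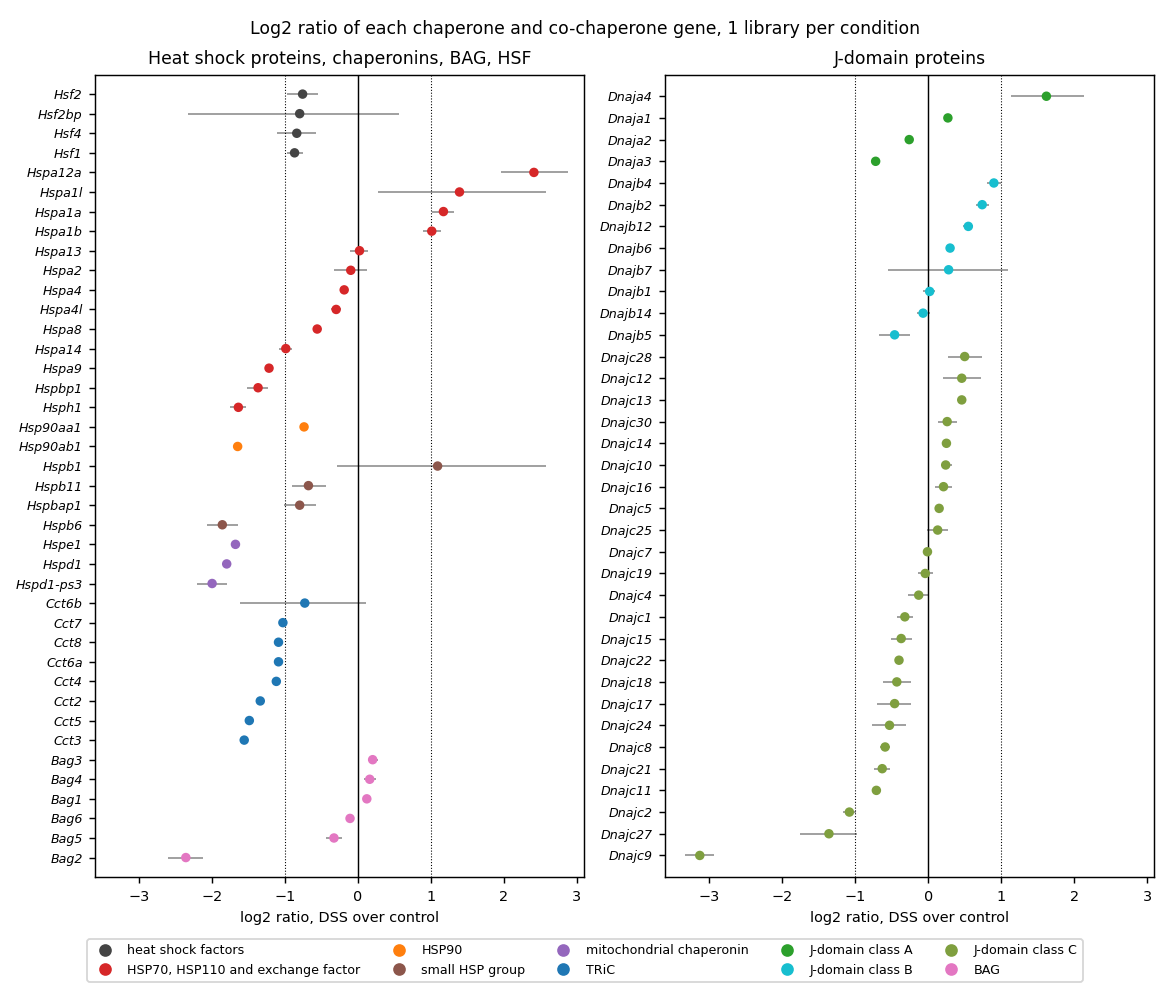
Log2 ratio, DSS over control, of the 76 chaperone and co-chaperone genes (points, coloured by role) with the 95% counting interval (bars), with dotted lines at -1 and 1. The points of TRiC, HSP90 and the mitochondrial chaperonin lie below 0 without exception, and those of the J-domain classes lie on both sides.

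The promoters of the members were searched for the heat shock element. Windows from 250 bases before to 50 bases after the start of a gene (RefSeq, build GRCm38.p6) were given for 59 of the 76 members. Hsp90aa1, Hsp90ab1, Hspa8, Hspa9 and Hsf1 are among the 17 that were not searched. A run of 3 repeats was spelled as GAA, any 2 letters, TTC, any 2 letters and GAA, or with GAA and TTC exchanged. A pair was the first 2 repeats of either run, so that each run holds pairs, and both strands were searched. Only exact matches were counted, so elements with a changed letter in a repeat were not found. The run was found in 4 members, or 6.78%, and in 0.662% of all 27025 genes with such windows. The members were Hspd1, Hspe1, Hsph1 and Dnajb6. Hspd1 has 2 windows. From one of its starts, Hspd1 and Hspe1 face away from each other with 216 bases between them and share the same element, and the window of its other start holds no run. The sites are shown because these members differed in direction, with the letters of the run in capitals. In Hsph1 the run lies after the start of the gene.

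Hspd1 and Hspe1, chr1:55088053-55088082, plus strand: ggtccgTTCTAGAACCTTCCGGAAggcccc
Hsph1, chr5:149636282-149636306, minus strand: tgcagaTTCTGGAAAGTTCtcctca
Dnajb6, chr5:29735846-29735870, plus strand: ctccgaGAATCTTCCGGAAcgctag

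Hspd1, Hspe1 and Hsph1 had log2 ratios of -1.80, -1.68 and -1.64, and Dnajb6 had 0.30. The pair was found in 17 members, or 28.8%, and in 17% of all genes. Hspa1a and Hspa1b, which were higher in the DSS library, held the exact pair once each and no exact run in this window. Inexact elements in it were not searched for. Their upstream stretches of 250 bases differed at 3 positions and are shown because these genes are the inducible HSP70 pair, with the pair of repeats in capitals.

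Hspa1a, chr17:34972157-34972406, minus strand: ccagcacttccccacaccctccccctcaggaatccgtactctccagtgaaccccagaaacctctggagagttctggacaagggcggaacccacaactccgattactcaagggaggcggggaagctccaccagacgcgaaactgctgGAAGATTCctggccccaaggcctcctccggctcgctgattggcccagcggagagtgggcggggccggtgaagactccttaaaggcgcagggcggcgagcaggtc
Hspa1b, chr17:34959239-34959488, minus strand: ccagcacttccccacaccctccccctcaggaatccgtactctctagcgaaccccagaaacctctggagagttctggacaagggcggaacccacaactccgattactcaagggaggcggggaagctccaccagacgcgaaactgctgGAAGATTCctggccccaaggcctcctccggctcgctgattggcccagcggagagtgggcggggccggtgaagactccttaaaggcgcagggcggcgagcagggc

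The 17 members with a pair ran from -1.86 (Hspb6) to 1.62 (Dnaja4), with a median log2 ratio of 0.20, beside -0.31 for the members with a window and no pair. The 17 include Hspb1, on 8 control and 13 DSS counts, and the near-copy promoters of Hspa1a and Hspa1b. Medians of all genes with and without a pair were not computed, and a link of the pair to the ratios was not tested. A match of letters is a description of the window and no record of binding.

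All 4 genes with Hsf names were lower in the DSS library, by less than 2-fold each. But with total counts all 4 were at 2-fold lower, beside 26.2% of all genes, from -1.13 for Hsf1 to -1.01 for Hsf2. Hsf1, the main stress-responsive factor, had 2150 control and 899 DSS counts, at a log2 ratio of -0.87 (interval -0.98 to -0.76). Hsf2, which can pair with Hsf1, had 604 and 273 counts, at -0.76. Hsf4, best known from the lens of the eye, had 402 and 171 counts, at -0.84. Hsf2bp, a partner of Hsf2 named with the factors, rested on 16 and 7 counts, and its interval from -2.33 to 0.56 included 0. The activity of Hsf1 depends on its release from chaperones and on phosphorylation, which these counts do not measure.

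In the HSP70 group, Hspa1a and Hspa1b were higher and the abundant Hspa8 and Hspa9 lower in the DSS library. Hspa1a and Hspa1b encode the stress-inducible HSP70. Hspa1a had 567 control and 974 DSS counts, or 7.92 and 17.8 CPM, at a log2 ratio of 1.17 (interval 1.02 to 1.32). Hspa1b had 1008 and 1551 counts, or 14.1 and 28.4 CPM, at a log2 ratio of 1.01 (interval 0.89 to 1.13). Both were at or above the 2-fold line, but with total counts they were at 0.91 and 0.75 and no longer reached it. The genes are near copies. Of the windows of 100 bases in the longest transcript, 48.6% in Hspa1a and 49.9% in Hspa1b are also found in transcripts of other genes, mostly in one another. Summed over both, which does not depend on how reads were divided between them, they had 1575 and 2525 counts, at 1.07 (interval 0.98 to 1.16).

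Hspa8, the constitutive HSP70 of the cytosol, had 149444 control and 77649 DSS counts, at a log2 ratio of -0.56 (interval -0.57 to -0.54). The inducible pair thus took a larger part of the cytosolic HSP70 counts in the DSS library. Hspa1a and Hspa1b made up 1.04% (95% interval from 0.992% to 1.10%) of the counts of Hspa1a, Hspa1b and Hspa8 in the control and 3.15% (from 3.03% to 3.27%) with DSS. This share does not depend on the scaling of the libraries. Hspa8 remained by far the larger part in both. In Hspa8, 62.8% of the windows occur in transcripts of other genes, Gm15459 among them, so its separate count depends on how shared reads were treated.

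The other HSP70 genes ran in both directions. Hspa12a, a distant relative of the family, had the highest ratio of all members, at 2.41 (interval 1.96 to 2.88), on 51 control and 207 DSS counts, or 0.713 and 3.79 CPM. Hspa1l, a testis-enriched relative of the inducible pair, rested on 11 and 22 counts, at 1.39 (interval 0.28 to 2.58). Hspa13, an HSP70 of microsomes, was at 0.02 and Hspa2 at -0.10, and both intervals included 0. Hspa9, the mitochondrial HSP70 that pulls in imported proteins, had 69839 and 22972 counts, at -1.22 (interval -1.24 to -1.19). Hspa14, an HSP70 that works at the ribosome, was at -0.99, just short of 2-fold lower.

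The exchange factors of HSP70 were not alike. Hsph1, the inducible HSP110, had 2938 control and 718 DSS counts, or 41.1 and 13.1 CPM, at a log2 ratio of -1.64 (interval -1.76 to -1.53). Its relatives Hspa4 and Hspa4l, which have the same function, were at -0.19 and -0.30. Hspbp1, an exchange factor of another fold, had 1706 and 503 counts, at -1.37 (interval -1.52 to -1.23). The inducible HSP70 pair and the inducible HSP110 therefore lay on opposite sides of the 2-fold lines, with 2.25-fold and 2.01-fold higher values for Hspa1a and Hspa1b and a 3.13-fold lower value for Hsph1. Over all 13 genes of the group, 4 were at 2-fold higher and 3 at 2-fold lower, or 30.8% and 23.1%, beside 19.3% and 20.2% of all genes, with a median of -0.19. With total counts 2 were at 2-fold higher and 4 at 2-fold lower, or 15.4% and 30.8%, beside 15.4% and 26.2% of all genes. Of the 4 at 2-fold higher with TMM factors, Hspa1a and Hspa1b are near copies, and Hspa1l had 11 control and 22 DSS counts.

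Both cytosolic HSP90 genes were lower in the DSS library. Hsp90ab1, the constitutive form, had 174950 counts in the control, the most of any member there, and 42622 with DSS, or 2444 and 780 CPM. Its log2 ratio was -1.65 (interval -1.66 to -1.63), which is 3.14-fold lower. Hsp90aa1, the form that is induced by heat, had 30921 and 14159 counts, at -0.74 (interval -0.77 to -0.71). The inducible form was lower by less and so made up 15% of the HSP90 counts in the control (from 14.9% to 15.2%) and 24.9% with DSS (from 24.6% to 25.3%). In Hsp90aa1, 47.5% of the windows are shared with transcripts of other genes, and in Hsp90ab1 none.

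**Figure D2:**
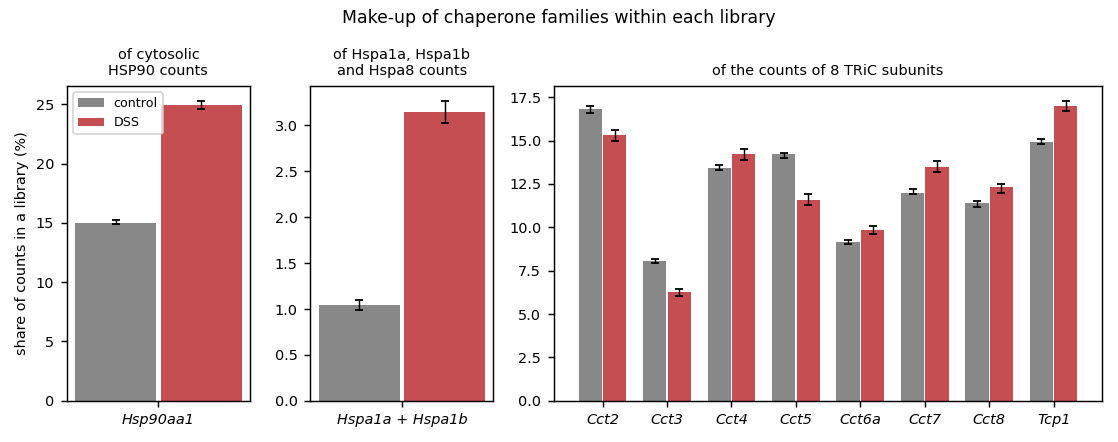
Share of the counts of a chaperone family (vertical axes, percent, each starting at 0) in the control (grey) and with DSS (red), with exact 95% counting intervals as error bars. Hsp90aa1 is 15% of the HSP90 counts in the control and 24.9% with DSS, and the Hspa1 pair 1.04% and 3.15% of the HSP70 set. Among the 8 TRiC subunits, Cct5 holds 14.2% and 11.6% and Tcp1 14.9% and 17%.

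Small heat shock proteins bind unfolding proteins without ATP. Hspb6, found mainly in muscle, had 1062 control and 224 DSS counts, at a log2 ratio of -1.86 (interval -2.07 to -1.65). Hspb1, the small heat shock protein best known from stressed epithelium, had 8 and 13 counts, and its ratio was 1.09 (interval -0.29 to 2.57). Of its windows, 42.7% are shared with the pseudogene Hsp25-ps1, and a count so near to 0 depends on how such reads were treated. Hspb11, a subunit of the transport machinery of cilia, was at -0.68, and Hspbap1, named as a partner of Hspb1, at -0.80.

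The mitochondrial chaperonin was among the groups with the lowest ratios, and its barrel and lid were lower to a like degree. Hspd1, the HSP60 barrel, had 49215 control and 10796 DSS counts, or 688 and 198 CPM, at a log2 ratio of -1.80 (interval -1.83 to -1.77). Hspe1, the HSP10 lid, had 10472 and 2499 counts, at -1.68 (interval -1.74 to -1.62). Hspe1 made up 17.5% of their joint counts in the control (from 17.2% to 17.9%) and 18.8% with DSS (from 18.1% to 19.5%). Hspd1-ps3, a processed pseudogene that the name pattern takes in, was at -2 with 1265 and 241 counts. It shares 36.9% of its windows with other genes, mostly Hspd1, and it held 2.51% of their joint counts in the control and 2.18% with DSS. The sum of Hspd1 and Hspd1-ps3 was at -1.80.

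TRiC is a double ring of 8 different subunits, 7 of which bear Cct names in this table and 1 the name Tcp1. All 7 Cct subunits of the general complex were at 2-fold lower, beside 20.2% of all genes, at log2 ratios from -1.56 to -1.03. With upper quartile factors 5 of the 7 were, beside 18.3% of all genes, with Cct7 at -0.94 and Cct8 just short of the line. The lowest were Cct3, with 13601 control and 3512 DSS counts (-1.56, interval from -1.62 to -1.51), and Cct5, with 23907 and 6506 counts (-1.49, interval from -1.53 to -1.45). Cct2 was at -1.34, Cct4 at -1.12, Cct6a and Cct8 at -1.09 and Cct7 at -1.03. Tcp1, which the name pattern does not take, was at -1.01 with 25194 and 9557 counts. The subunits are needed in equal number in the complex. Together they had 168583 and 56098 counts, at -1.20. The shares in this sum that moved most went from 14.2% to 11.6% for Cct5, from 8.07% to 6.26% for Cct3 and from 14.9% to 17% for Tcp1. These shifts exceeded the counting intervals. Cct6b, a testis form, rested on 39 and 18 counts, at -0.73 with an interval that included 0.

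**Figure D3:**
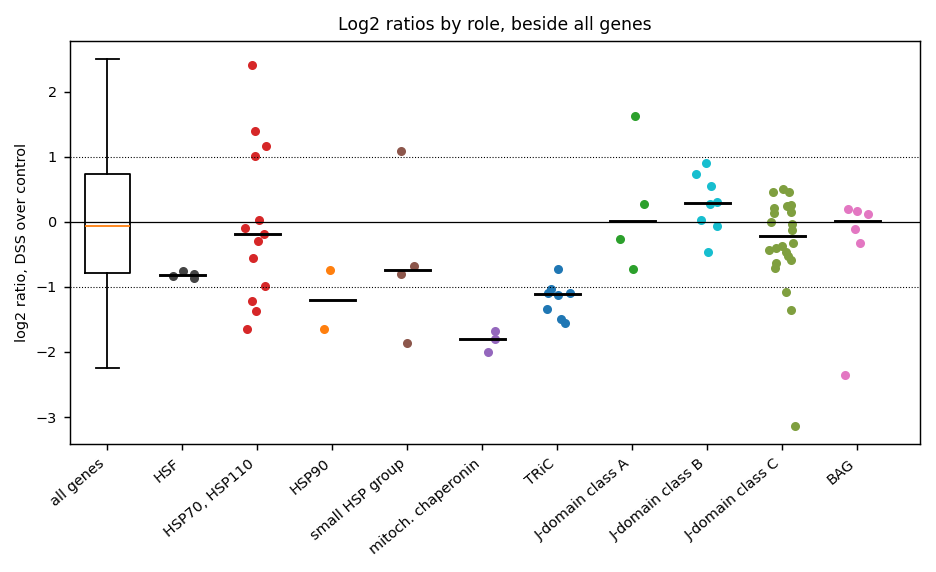
Log2 ratios, DSS over control, by role of the gene (points, with the median as a line) beside all 17235 genes (box from the percentile 25 to 75, whiskers at 5 and 95), with dotted lines at -1 and 1. The medians run from -1.80 for the mitochondrial chaperonin, -1.19 for HSP90 and -1.10 for the Cct genes to 0.29 for class B J-domain proteins.

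The J-domain proteins lay mostly between the 2-fold lines. Of 36 such genes, 1 was at 2-fold higher, 3 at 2-fold lower and 32 between, and their median log2 ratio was -0.02, close to the -0.06 of all genes. The other 40 members had a median of -0.80, with 5 at 2-fold higher and 16 at 2-fold lower. Of all genes, 19.3% were at 2-fold higher and 20.2% at 2-fold lower. The counts of all J-domain genes summed to 116080 in the control and 85117 with DSS, at -0.06 after scaling.

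Class A J-domain proteins resemble the ancestral bacterial DnaJ. Dnaja1, the main partner of HSP70 in the cytosol, had 7388 and 6797 counts, at 0.27 (interval 0.22 to 0.32), and at 0.01 with total counts. Dnaja2, its close relative, was at -0.26. Dnaja3, the partner of Hspa9 in mitochondria, had 8338 and 3880 counts, at -0.72 (interval -0.77 to -0.66). Dnaja4 was the only J-domain gene at 2-fold higher, at 1.62 (interval 1.14 to 2.13), on 51 and 120 counts. The mitochondrial member of the class was thus the lowest of the 4, whose median was 0.00, or -0.25 with total counts.

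After Dnaja4, the J-domain genes with the highest ratios were of class B, which had a median of 0.29, or 0.04 with total counts. Dnajb4, a cytosolic partner of HSP70, had 1400 control and 1996 DSS counts, at 0.90 with an interval above 0. Dnajb2, which also binds ubiquitin, had 1769 and 2251 counts, at 0.74. Dnajb12, an HSP70 partner in the membrane of the endoplasmic reticulum, was at 0.55, and its relative Dnajb14 at -0.07 with an interval that included 0. Dnajb6, which keeps proteins from aggregating, was at 0.30. Dnajb1, the classical inducible HSP40 and a partner of the inducible HSP70, had 2643 and 2045 counts, at 0.02 (interval -0.07 to 0.10). Hspa1a and Hspa1b were at 1.17 and 1.01 beside it, and with total counts it was at -0.24. Dnajb5 was lowest in the class, at -0.46, and Dnajb7, with 28 and 26 counts, at 0.28. All 8 class B genes lay between the 2-fold lines.

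Class C holds J-domain proteins with specialised tasks, and it had the widest range of the J-domain classes, with a median of -0.23. Dnajc9, which carries histones H3 and H4 to newly made DNA, was the lowest of all members. It had 2667 control and 233 DSS counts, or 37.3 and 4.26 CPM, at a log2 ratio of -3.13 (interval -3.33 to -2.93), which is 8.74-fold lower. Markers of cycling cells were lower alongside it, such as Mki67 at -4.02, and their part in this value was not tested. Dnajc27, a small GTPase with a J-domain, had 242 and 72 counts, at -1.36 (interval -1.76 to -0.98). Dnajc2, which sits at the exit of the ribosome together with Hspa14, had 3672 and 1327 counts, at -1.08 (interval -1.17 to -0.99), and at -0.99 with upper quartile factors. Dnajc2 and Hspa14, the 2 parts of the ribosome-associated complex, were thus lower to a like degree.

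The other 21 class C genes lay between the 2-fold lines. Toward the lower side were the mitochondrial Dnajc11 at -0.71, Dnajc21, which acts in the making of ribosomes, at -0.63, the splicing-associated Dnajc8 at -0.59 and Dnajc24 of the diphthamide pathway at -0.53. Dnajc17 at -0.46, Dnajc18 at -0.43, Dnajc22 at -0.40, Dnajc15 at -0.37 and Dnajc1 at -0.32 followed. Dnajc19, a part of the mitochondrial import motor, was at -0.04, and Dnajc7, which passes clients between HSP70 and HSP90, at -0.01, with intervals that included 0, as did those of Dnajc4 at -0.13 and Dnajc25 at 0.13. On the higher side, Dnajc28 was at 0.50, Dnajc12 and the endosomal Dnajc13 at 0.46, Dnajc30 at 0.26, Dnajc14 at 0.25, Dnajc10, a reductase of the endoplasmic reticulum, at 0.24, Dnajc16 at 0.21 and Dnajc5, the cysteine string protein, at 0.15. With total counts, Dnajc5, Dnajc10, Dnajc14, Dnajc16 and Dnajc25 were below 0.

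The BAG proteins, which release clients from HSP70, lay between -0.33 and 0.20 with the exception of Bag2. Bag2, which blocks the ubiquitin ligase that works with HSP70, had 1113 control and 166 DSS counts, or 15.6 and 3.04 CPM, at a log2 ratio of -2.36 (interval -2.60 to -2.12). Bag3, which directs clients to autophagy and is itself a heat shock gene, had 3263 and 2872 counts, at 0.20 (interval 0.13 to 0.28). Bag4 was at 0.16 and Bag1 at 0.12, and these 3 turned to -0.05, -0.10 and -0.14 with total counts. Bag6, which handles proteins bound for membranes, was at -0.11 and Bag5 at -0.33.

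**Figure D4:**
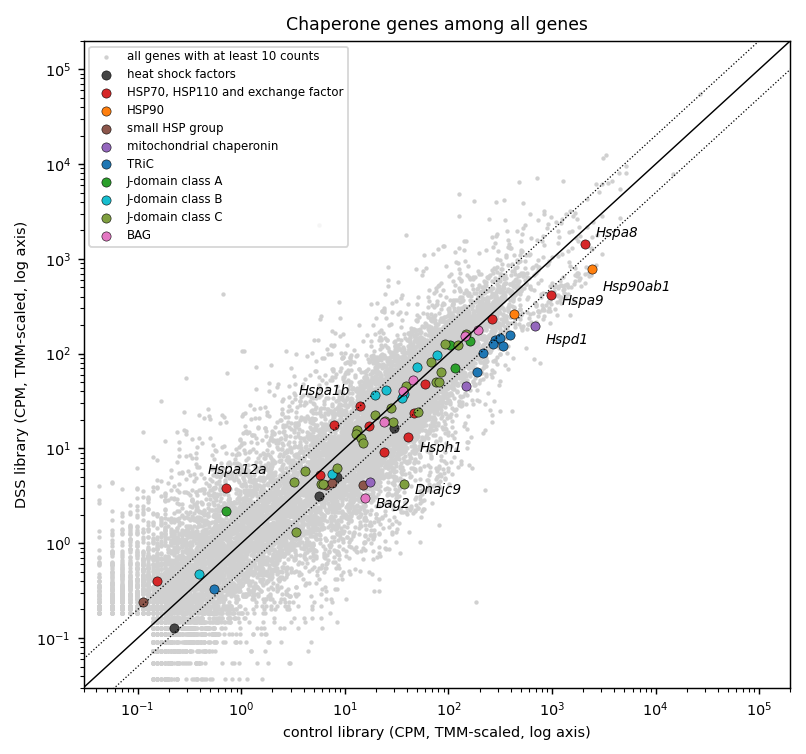
CPM of each gene in the control library (horizontal, log axis) and the DSS library (vertical, log axis), with the members coloured by role over all genes with at least 10 counts (grey), the line of equality and dotted lines at 2-fold. Hsp90ab1, Hspa9, Hspd1 and 7 Cct genes, at the abundant end, lie at or below the lower dotted line, and Hspa1b and Hspa12a lie above the upper line.

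Other genes of the pathway, which the name patterns do not take, were described from lists. Of 18 co-chaperones of HSP90, 5 were at 2-fold lower, or 27.8%, beside 20.2% of all genes, and none at 2-fold higher, with a median log2 ratio of -0.64. With total counts 8 of them were at 2-fold lower, or 44.4%, beside 26.2% of all genes. With upper quartile factors 4 were, or 22.2%, beside 18.3%. The lowest were Ppid at -1.58, Stip1, which joins HSP70 to HSP90, at -1.36, Nudc at -1.19 and Ahsa1, which speeds the ATP cycle of HSP90, at -1.16. The 14 genes of mitochondrial proteostasis had a median of -0.58, and 4 were at 2-fold lower, or 28.6%, beside 20.2% of all genes. The 4 were Htra2 at -1.38, the protease Lonp1 at -1.32, the mitochondrial HSP90 Trap1 at -1.24 and Phb at -1.09. With total counts 6 of the 14 were at 2-fold lower, or 42.9%, beside 26.2% of all genes. With upper quartile factors 3 were, or 21.4%, beside 18.3%. The 15 genes of prefoldin and other TRiC partners had a median of -0.12, with Tcp1 alone at 2-fold lower, which it was not with upper quartile factors. The 9 other HSP70 co-chaperones also had a median of -0.12, and none was at 2-fold in either direction. With total counts 2 were at 2-fold lower, or 22.2%, beside 26.2% of all genes.

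A list of 14 other targets of Hsf1 and genes of general stress had a median of 0.72, with 4 genes at 2-fold higher, or 28.6%, beside 19.3% of all genes, and 3 below 0 (Mt2 at -0.23, Trib3 at -0.17 and P4ha1 at -0.06). The 4 were Atf3 at 2.68, Ddit3 at 1.44, Jun at 1.40 and Fos at 1.08, transcription factors that respond to many kinds of stress. With total counts 3 of the 14 were at 2-fold higher, or 21.4%, beside 15.4% of all genes. With upper quartile factors 6 were, or 42.9%, beside 21.2%. Of the 5 chaperones of the endoplasmic reticulum that were left out of the members, Dnajb9 was at 1.75, Hsp90b1 at -1.07 (short of 2-fold with upper quartile factors), and Dnajc3, Dnajb11 and Hspa5 at 0.19, 0.17 and 0.01.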

How the data were processed

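Stranded poly(A) libraries (TruSeq Stranded mRNA) of 1 control and 1 DSS-treated culture of mIOs were sequenced. The values the authors deposited are raw counts by NCBI gene identifier, and the files named as FPKM hold these counts for all 19294 genes. HISAT2 and StringTie are named in the submitters' processing notes. Versions, genome build, use of strand in counting and treatment of shared reads are not given in the sources used here. No listed gene is at 0, so genes absent from one library are not analysed here.

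TMM factors, 1.09 (control) and 0.915 (DSS), came from edgeR 4.0.16 in R 4.3.3. Depth was 65493032 and 59746968 counts. Intervals cover counting error only. They treat each read as an independent molecule, which PCR reads are not, so they can be too narrow. No test was made with 1 library per condition. Union exon lengths (74 of 76 members) and the windows of 100 bases (longest coding transcript, 75 members) came from GENCODE vM21, and promoters from RefSeq. Scripts were tested on simulated data. The planned protein identity was not run.

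Named were fixed central members, every member at 2-fold with 100 counts or more in one library, the extremes of each role and up to 4 genes per companion list by the same limits. Other members and the remaining chaperones of the endoplasmic reticulum were named after their values were seen. Members and lists were chosen with earlier results of these data known. Alternatives were DESeq2 1.42.0 size factors, upper quartile factors, total counts, other count minimums, a prior count of 2, centring and other summaries. Sums of near-identical genes, the minimum of 1000 counts and the removal of Hspd1-ps3 were chosen after seeing the data. Python 3.11.15 with scipy 1.17.1 and matplotlib 3.10.9 was used.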

Additional observations from a re-analysis of the deposited data

How the results depend on the processing

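Each condition was 1 library, so no replicate could be left out. No paired analysis was possible because the result comes from no test and each group has 1 sample. Total counts in place of TMM factors moved the median of all genes by -0.26 on the log2 scale, to -0.31, and all members with it. The number of members at 2-fold higher was then 3 in place of 6, and their median was -0.64 in place of -0.39. The difference between the median of the members and that of all genes was not affected, as one factor applies to every gene. The numbers at 2-fold did change, among the members and among all genes. Of the 76 members, 10 turned from above to below 0 with total counts, and 3 close to 0 turned with upper quartile factors (Dnajb14, Dnajc7 and Dnajc19). None turned with DESeq2 size factors or a prior count of 2. The number at 2-fold higher was 1 among members with at least 1000 counts, a minimum chosen after seeing the data that leaves 54 of them. The log2 ratio of the summed counts was -0.83 against the median of -0.39, a sum in which Hsp90ab1 alone holds 21.4% of the control counts. The number at 2-fold lower ran from 16 (upper quartile factors) to 25 (total counts). Depth limited Hspb1, Hspa1l, Hsf2bp, Cct6b and Dnajb7, with fewer than 50 counts in each library.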
